A study of Mus musculus with 2 samples.

Results

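To see how mRNAs of apoptosis regulators behave in an anti-HuR immunoprecipitate of fat, 10 genes were taken by symbol from the deposited table of 38396 genes. They were Bcl2, Bcl2l1, Mcl1, Xiap, Bax, Cycs, Casp9, Trp53, Mdm2 and Sirt1, and each matched 1 row. The rule lists genes by name and uses no threshold on a measured value, but the set was proposed with earlier results of these data known. RNA bound to an anti-HuR antibody (Santa Cruz) was sequenced from epididymal white fat of mice 6 weeks old. HuR-FKO mice carried AdipoQ-Cre with floxed HuR on both alleles (AdipoQ-Cre;HuRf/f). Control mice were HuRf/f littermates without Cre, so both groups carried the floxed alleles, on lines backcrossed with C57BL/6 for 2 generations. The adiponectin promoter drives Cre in adipocytes, and the other cells of the fat pad keep HuR. There was 1 library per genotype, and the number of animals behind each was not given in the sources used here. The differences below thus lack any measure of spread between mice, and no test was run.

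HuR, encoded by Elavl1, binds U-rich and AU-rich stretches, mostly in 3' untranslated regions, and is known in other cells to stabilize mRNAs or change their translation. Apoptosis through mitochondria turns on the BCL-2 family. BCL-2, BCL-XL and MCL-1 hold BAX in check, and BAX, once active, permeabilizes the outer mitochondrial membrane and releases cytochrome c. Cytochrome c assembles APAF1 with procaspase-9, and XIAP blocks the caspases that follow. p53 drives transcription of Bax, MDM2 marks p53 for degradation, and SIRT1 deacetylates it. Many of these genes have been described as HuR targets in other cell types. Here 1 immunoprecipitate was set against the other with no input or IgG library, so binding by HuR and abundance of the mRNA cannot be told apart. Fewer cells of a type and less RNA per cell also cannot be told apart in whole fat.

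Values were FPKM, which counts fragments by kilobase of transcript and divides them by the depth of the library. The deleted gene did not follow the labels on this scale: Elavl1 was at 26.1 FPKM in the HuR-FKO-labelled library and 16.6 FPKM in the control-labelled library, a log2 ratio of 0.65 that turned to -1.44 after median centring of the libraries. Every direction below is therefore given for the libraries as labelled. Most genes were higher in the HuR-FKO-labelled library. Over the 5571 protein-coding genes that reached 5 FPKM in at least 1 library (the tested genes), the median log2 ratio was 2.22, with quartiles at 1.34 and 3.22, and Elavl1 lay 2.97-fold below that median. Values are thus also placed relative to the median, which no scaling of a whole library changes. All 6 adipocyte markers exceeded 1 FPKM in both libraries, with summed levels of 18132 FPKM labelled HuR-FKO and 6787 FPKM labelled control. Summed markers of most other cell types were also higher in the HuR-FKO-labelled library. In the HuR-FKO-labelled and the control-labelled library, summed levels were 110 and 39.0 FPKM for 6 macrophage markers, 30.8 and 16.5 FPKM for 5 endothelial markers, 5.67 and 0.0733 FPKM for 6 lymphocyte markers, and 532 and 141 FPKM for 4 fibroblast markers. The adipocyte, macrophage, endothelial and fibroblast sums rose by less than the 4.66-fold of the median tested gene. Of the 6 lymphocyte markers, 5 were listed at 0 in the control-labelled library and 1 reached 1 FPKM in the HuR-FKO-labelled library. The macrophage gene Cd68 was listed at 0 in both libraries, and so were all 4 markers of the epididymal duct. The part of these cells in the values below was not tested.

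Of the 10 regulators, 9 were at least 2-fold higher in the HuR-FKO-labelled library, between 2.59-fold and 30.8-fold, and the exception was Casp9, listed at 0 there. The same call was made for 82.4% of tested genes, a share near that of the regulators. At a limit of 1 FPKM, which all 10 regulators reach, 10020 protein-coding genes were measured, of which 80.3% were called and 71.9% were called with a value above 0 in both libraries. None of the 9 was at least 2-fold higher in the control-labelled library, against 3.21% of tested genes. The shares of tested genes include the 15 listed at 0 in the HuR-FKO-labelled library, set to the floor of 0.1 FPKM, whereas Casp9 was left out, and under that rule it would count as 1 of 10 higher in the control-labelled library. The median log2 ratio of the 9 was 2.59, against 2.22 over the tested genes, whose SD was 1.88. Relative to the median of tested genes, 6 regulators lay above and 3 below. Only 8 of the 10 reached 5 FPKM, all 8 of them in the HuR-FKO-labelled library and 2 (Bcl2l1 and Cycs) also in the control-labelled library. Bcl2 and Casp9 stayed under it in both.

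**Figure D1:**
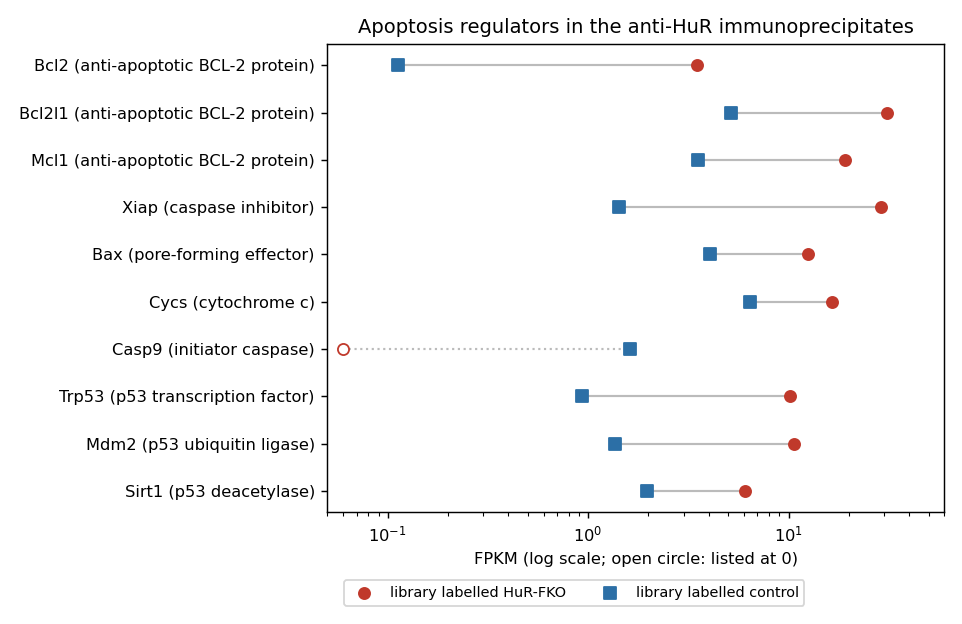
FPKM (log axis) of the 10 regulators, with a circle for the HuR-FKO-labelled library and a square for the control-labelled library; the open circle marks Casp9, listed at 0, and is placed at an arbitrary position. On the deposited scale the circle is to the right of the square for 9 genes, by 2.59-fold for Cycs and up to 30.8-fold for Bcl2; scaling by the median turns Bax, Cycs and Sirt1 round.

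The mRNAs of anti-apoptotic BCL-2 proteins among the regulators lay above the median ratio at the floor of 0.1 FPKM, Bcl2l1 and Mcl1 only slightly. Bcl2 itself (ENSMUSG00000057329, mm10 chr1:106538178-106714274, minus strand), the founding member, was at 3.49 FPKM in the HuR-FKO-labelled library and 0.113 FPKM in the control-labelled library. This 30.8-fold ratio (log2 4.95) was the largest of the set. It rested on a control value of about 8.70 fragments at the smaller estimate of depth, and with low values raised to 1 FPKM the log2 ratio was 1.80, below the median of tested genes. Bcl2l1 (chr2:152780668-152831728), which encodes BCL-XL, was at 31.1 FPKM labelled HuR-FKO and 5.18 FPKM labelled control, a 6.00-fold difference. Mcl1 (chr3:95658721-95663176), whose short-lived protein guards BAK and other effectors, was at 19.0 and 3.52 FPKM in the same order, 5.40-fold higher in the HuR-FKO-labelled library. These 2 genes moved almost as the median gene did, at 1.29-fold and 1.16-fold above it. They also kept their order, with Mcl1 at 0.612 times the level of Bcl2l1 in the HuR-FKO-labelled library and 0.680 times in the control-labelled library. With no replicates, no spread is known for any of these levels.

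Xiap (chrX:42059679-42109656), which encodes a direct caspase inhibitor, had the second largest ratio. It was at 29.1 FPKM in the HuR-FKO-labelled library and 1.42 FPKM in the control-labelled library, 20.4-fold higher and 4.38-fold above the median ratio. Its rank was 660 among the 5571 tested genes. No other annotated gene overlaps Xiap, and the lower value corresponds to about 104 fragments. In the HuR-FKO-labelled library the level of Xiap was close to that of Bcl2l1, the highest of the set. In the control-labelled library it was seventh of the 10.

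Bax and Cycs, which act at the mitochondrion, lay below the median ratio. Bax (chr7:45461695-45466898), the pore-forming effector, was at 12.5 FPKM labelled HuR-FKO and 4.07 FPKM labelled control, 3.08-fold higher in the HuR-FKO-labelled library and 1.52-fold below the median ratio. Cycs (chr6:50562563-50566538), which encodes somatic cytochrome c and has processed pseudogenes that can share its reads, was at 16.6 and 6.41 FPKM, 2.59-fold higher in the HuR-FKO-labelled library and 1.80-fold below the median. Cycs was the most abundant of the 10 in the control-labelled library. Bax is overlapped on the same strand by 915 bases of Gm45808, annotated as protein-coding, for which no value is given. After median centring the log2 ratio was -0.47 for Bax and -0.72 for Cycs, so the direction of both depends on the scaling.

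Casp9 (chr4:141793612-141815976, plus strand), the initiator caspase of this pathway, was listed at 0 in the HuR-FKO-labelled library and at 1.62 FPKM in the control-labelled library, where that value corresponds to about 65.7 fragments. A listed 0 of this kind was uncommon. It occurred in the HuR-FKO-labelled library for 0.269% of tested genes and for 1.03% of those at 1 FPKM or more. A value of exactly 0 may come from an estimate that failed, and the caspase gene Casp2 was listed at 0 in both libraries. The end of Casp9 overlaps the ends of Ctrc and Cela2a on the opposite strand by 1015 bases, of which 94 are exonic in both Casp9 and Ctrc. Ctrc, which encodes the pancreatic protease chymotrypsin C, was at 8.36 FPKM in the HuR-FKO-labelled library and listed at 0 in the control-labelled library, the reverse of Casp9. Ctrc was chosen by the rule on overlapping genes. Of 10 other digestive enzyme genes, picked after this value was seen, 7 were listed at 0 in the HuR-FKO-labelled library and 8 in the control-labelled library. The highest values were 0.902 and 0.903 FPKM in the same order, so the list did not separate the libraries. Whether reads of Casp9 were counted under Ctrc, or the Ctrc value had another source, was not tested. With the FPKM of Ctrc brought to the exonic length of Casp9 (1428 against 5197 bases) and the genes summed, a setting added after seeing the data, the locus was at 2.30 FPKM in the HuR-FKO-labelled library and 1.62 FPKM in the control-labelled library, 1.42-fold apart. The regulators called then stayed at 9 of 10.

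**Figure D2:**
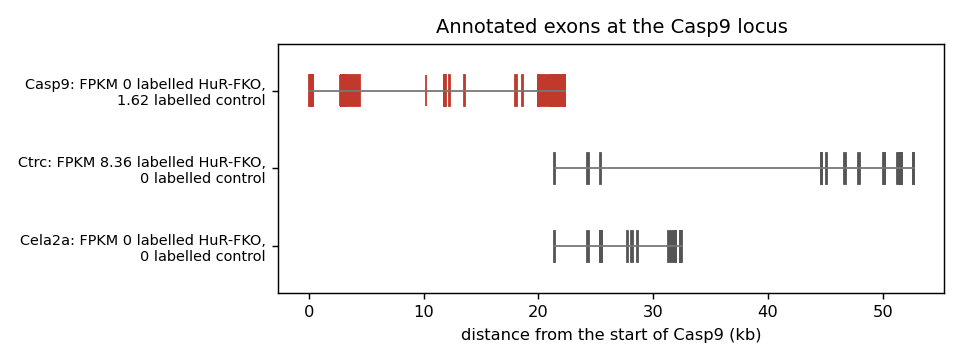
Annotated exons (boxes) of Casp9, Ctrc and Cela2a against distance in kb from the start of Casp9, with FPKM for the HuR-FKO-labelled library and then the control-labelled library beside each name. The last exon of Casp9 reaches under the ends of both neighbours, and Casp9 (0 and 1.62 FPKM) and Ctrc (8.36 and 0 FPKM) show opposite patterns.

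The p53 genes split. Trp53 (chr11:69580359-69591873), which encodes p53, was at 10.2 FPKM in the HuR-FKO-labelled library and 0.928 FPKM in the control-labelled library, 11.01-fold higher and 2.36-fold above the median ratio, with about 16.0 fragments behind the lower value. Mdm2 (chr10:117688888-117710758), the ubiquitin ligase of p53 and itself a p53 target gene, was at 10.7 and 1.36 FPKM, 7.84-fold higher in the HuR-FKO-labelled library. The mRNA levels of Trp53 and Mdm2 were within 2-fold of each other in both libraries. Trp53 was at 0.958 times Mdm2 in the HuR-FKO-labelled library and 0.682 times in the control-labelled library. The control ratio rests on about 16.0 fragments for Trp53 and 43.4 for Mdm2. Sirt1 (chr10:63319005-63381704), a deacetylase of p53, was at 6.04 FPKM labelled HuR-FKO and 1.97 FPKM labelled control, 3.07-fold higher and 1.52-fold below the median. As for Bax and Cycs, median centring turned its log2 ratio, to -0.48.

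**Figure D3:**
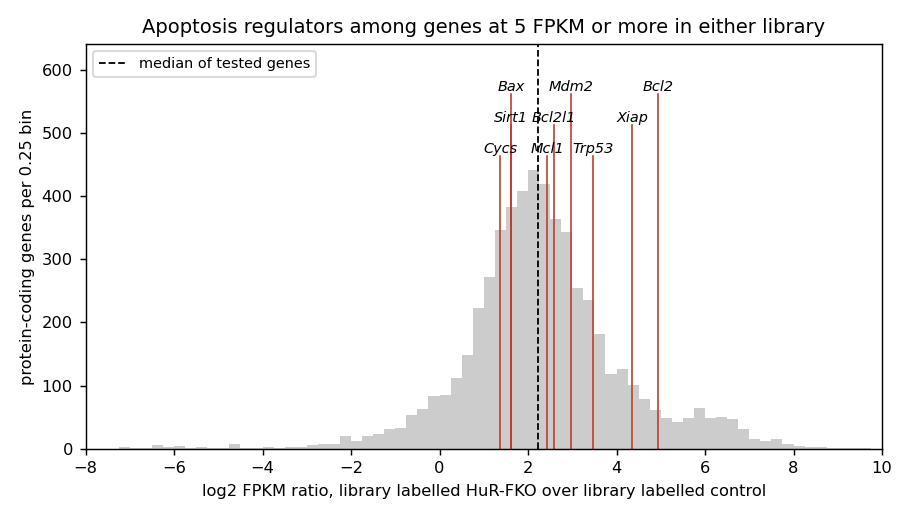
Histogram of the log2 FPKM ratio, HuR-FKO-labelled over control-labelled library, for the 5571 tested genes, with red lines at the 9 regulators above 0 in both libraries (Bcl2 is marked although it stays under 5 FPKM). All 9 lie right of 0 on this scale, 6 lie right of the dashed median at 2.22, and Bcl2, Xiap and Trp53 are at least 2-fold beyond it; after median centring Bax, Cycs and Sirt1 fall left of 0.

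Among the regulators, 3 lay at least 2-fold above the median ratio (Bcl2, Xiap and Trp53), a position held by 25% of tested genes. None of the 9 was at least 2-fold below it, against 21.8% of tested genes, a share that again includes genes listed at 0 while Casp9 was left out. Ratios between 2 genes of the same library are free of the scaling between libraries. The level of Bax was 3.59 times that of Bcl2 in the HuR-FKO-labelled library and 36.0 times in the control-labelled library, a 10.03-fold difference that carries the low control value of Bcl2. Against Bcl2l1 the level of Bax was 0.402 and 0.785 times, and against Mcl1 0.657 and 1.15 times, in the same order, which is less than 2-fold between libraries. The level of Cycs was 0.570 times that of Xiap in the HuR-FKO-labelled library and 4.50 times in the control-labelled library, 7.90-fold apart. Sirt1 was at 0.591 times Trp53 in the HuR-FKO-labelled library and 2.12 times in the control-labelled library. The order of levels was thus not the same in the libraries. From high to low it ran Bcl2l1, Xiap, Mcl1, Cycs, Bax, Mdm2, Trp53, Sirt1, Bcl2 and Casp9 in the HuR-FKO-labelled library, and Cycs, Bcl2l1, Bax, Mcl1, Sirt1, Casp9, Xiap, Mdm2, Trp53 and Bcl2 in the control-labelled library.

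HuR sites lie mostly in 3' untranslated regions (UTRs), so those of the annotated transcript with the longest coding sequence were read. The UTRs of the regulators ran long, with a median of 1960 bases, and 8 of 10 were longer than the median of 806 bases over 20013 protein-coding genes. Bcl2 (5086 bases) and Xiap (4672 bases) were at the 97.0 and 96.3 percentile of length. The shortest were Bax, at 165 bases, and Trp53, at 441 bases. The pentamer ATTTA, the core of AU-rich elements, occurred in 9 of 10, against 61.9% of all these UTRs, and the nonamer TTATTTATT, which holds an ATTTA, in 4 of 10 (Bcl2, Cycs, Casp9 and Mdm2), against 6.97%. The sequences were searched on the sense strand. Long UTRs hold more matches, so each was set beside UTRs within 20% of its own length. ATTTA occurred in 83.2% to 99.4% of such UTRs for the regulators other than Trp53 (46.5%) and Bax (21.0%). A match was thus common at most of these lengths. Mdm2 had 8 ATTTA in 1335 bases, or 5.99 per kb, a density above that of 97.8% of UTRs of its length. Sirt1 (7 ATTTA) and Xiap (16 ATTTA) were denser than 92.0% and 90.6% of theirs, and Bcl2l1 and Casp9, with 1 and 2 ATTTA, than 24.1% and 23.8%. The nonamer was held by 21.5% of UTRs as long as that of Bcl2, and by 13.1%, 11.7% and 8.47% for Cycs, Casp9 and Mdm2. Trp53 had a single ATTTA but 13 overlapping TTTTT runs, or 29.5 per kb, denser than 97.2% of UTRs of its length (TTTTT occurs in 69.5% of all UTRs). The looser pattern NNTTNNTTT was found in all 10 and in 74.7% of all UTRs. Among UTRs of similar length its share was 94.7% to 99.7%, except for Trp53 (68.3%) and Bax (41.0%). A match is a description of sequence and not a site.

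**Figure D4:**
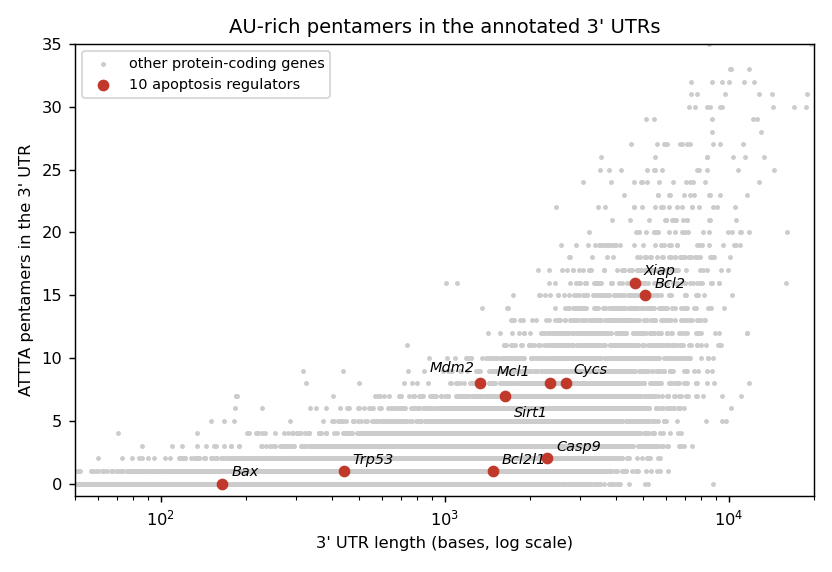
Number of ATTTA pentamers against 3' UTR length in bases (log axis), 1 point per protein-coding gene within the axis ranges, with the 10 regulators in red. Xiap (16) and Bcl2 (15) stand at the long end, Mdm2 (8 in 1335 bases) high for its length, and Bax has none.

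A window picked from each UTR by its count of ATTTA, and then of T, shows how unlike these messages are. Runs rich in T can lie outside such a window, as the TTTTT runs of Trp53 do. Shown are windows of 30 bases with the most ATTTA, 5' to 3' as DNA letters of the GENCODE M21 transcripts on mm10, with every ATTTA in capitals.
Bcl2: tATTTAggaaaaaaaagATTTATTTATTTA
Mdm2: aacATTTAATTTATTTAgtgtctttcatgt
Mcl1: ATTTAtccttgatcatagtttgcttATTTA
Xiap: ATTTActtggaATTTAttggagttataaat
Sirt1: ATTTAaatattcatgtgggtttagtATTTA
Bcl2l1: tatttttgttaagcgtgtctgtATTTAtgt
Cycs: tactaaatggttttatacttagATTTAtat
Casp9: taattcttccttgagaacattATTTAttct
Trp53: ttccattctgcaaagcctgtctgcATTTAt
Bax: tgtgtcttttcttcataaattatgacattt
The Bcl2 window, with 4 ATTTA of which 3 overlap, starts at base 232 of the UTR (chr1:106543003-106543032, minus strand), and the Mdm2 window, with 3, lies at chr10:117689801-117689830 on the minus strand. Those of Mcl1 (chr3:95662590-95662619) and Xiap (chrX:42105460-42105489) are on the plus strand and hold 2 each, as does that of Sirt1 (chr10:63319423-63319452, minus strand). A single ATTTA is in the windows of Bcl2l1 (chr2:152780901-152780930, minus strand), Cycs (chr6:50564927-50564956, minus strand), Casp9 (chr4:141814290-141814319, plus strand) and Trp53 (chr11:69591753-69591782, plus strand). Bax has none, and its window, the richest in T, is at chr7:45461812-45461841 on the minus strand.

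The pentamer count did not order the ratios. Bcl2 and Xiap, with the most ATTTA, had the largest ratios toward the HuR-FKO-labelled library, while Trp53, with 1 ATTTA, came next, and Sirt1 and Cycs, with 7 and 8, had the smallest with Bax. Over tested genes the median log2 ratio was 2.20 for the 3301 genes with an ATTTA and 2.27 for the 2262 without, and 2.27 for the 292 with the nonamer and 2.22 for the 5271 without.

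The rest of the pathway was described by 8 lists of 71 other genes. Of these, 32 reached 5 FPKM in either library. On the deposited scale 27 of the 32 were at least 2-fold higher in the HuR-FKO-labelled library, where 82.4% of tested genes were, and 2 were at least 2-fold higher in the control-labelled library, where 3.21% were. Their median log2 ratio was 1.99, against 2.22 over tested genes. The effector and BH3-only list, which promotes apoptosis, had 5 of 12 genes at 5 FPKM, all 5 below the median ratio. Among them Bak1, the partner of BAX, was at 7.52 FPKM labelled HuR-FKO and 2.40 FPKM labelled control, and the mitophagy receptor genes Bnip3 (156 and 48.1 FPKM) and Bnip3l (16.3 and 5.92 FPKM) were 3.23-fold and 2.75-fold higher in the HuR-FKO-labelled library. Median centring turns all 3. The anti-apoptotic relatives of Bcl2 were not measurable as a list, since 3 of 5 were under 0.1 FPKM in both libraries and none reached 5 FPKM. Bcl2l2, which encodes BCL-W, was at 1.33 FPKM labelled HuR-FKO and 1.86 FPKM labelled control, so it did not lie with Bcl2, Bcl2l1 and Mcl1.

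Inhibitors of apoptosis and their mitochondrial antagonists had 6 of 7 genes at 5 FPKM, with 4 above the median ratio and a list median of 3.42. Birc5, encoding survivin, was at 7.18 FPKM in the HuR-FKO-labelled library and 0.173 FPKM in the control-labelled library, a 41.5-fold difference, and Birc3, encoding cIAP2, was at 9.90 and 0.603 FPKM, 16.4-fold higher. Septin4, whose ARTS isoform antagonizes XIAP, was at 6.36 and 0.272 FPKM, in the same direction. Birc6 and Birc2 lay below the median, so the list did not move as 1 group. In the apoptosome and caspase list only 2 of 6 genes were at 5 FPKM. Apaf1, which recruits procaspase-9, was at 6.00 FPKM labelled HuR-FKO and 14.8 FPKM labelled control, 2.46-fold higher in the control-labelled library and 3.52 log2 units below the median ratio. Casp8, the initiator caspase of death receptors, was at 6.10 and 0.409 FPKM, 14.9-fold higher in the HuR-FKO-labelled library. Birc5, Birc3, Septin4 and Casp8 reached 5 FPKM only in the HuR-FKO-labelled library. Their control values were under 1 FPKM, that of Birc5 close to the floor of 0.1 FPKM. Their folds, and the list median of 3.42, thus carry low control values, and the floor of 1 FPKM was not tried on the lists.

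Genes that regulate p53 or answer to it had 11 of 20 genes at 5 FPKM, of which 3 were above the median ratio (list median 1.88). Rrm2b, a ribonucleotide reductase subunit induced by p53, was at 10.3 FPKM labelled HuR-FKO and 0.879 FPKM labelled control, whereas Phlda3, an inhibitor of AKT, was nearly equal on the deposited scale at 16.7 and 14.1 FPKM. Ei24, a p53-induced gene of the endoplasmic reticulum, was at 8.31 and 3.99 FPKM. At 5 FPKM most genes of this list thus lay below the median ratio, unlike Trp53. At a limit of 1 FPKM, 7 of 15 were above that same median, with a list median of 2.15. None of the 6 other sirtuins reached 5 FPKM. In the death receptor list, 3 of 4 measured genes were above the median ratio. Cflar, which encodes the caspase-8 inhibitor FLIP, was the most abundant, at 78.5 FPKM labelled HuR-FKO and 10.03 FPKM labelled control, and Tnfrsf10b, the TRAIL receptor, was at 8.01 and 0.822 FPKM. Tnfrsf1a, the TNF receptor, was at 7.95 and 5.83 FPKM. Among intermembrane space proteins, Cyc1, which encodes cytochrome c1, was at 27.2 FPKM labelled HuR-FKO and 5.10 FPKM labelled control, close to the median ratio, and Chchd4, the import oxidoreductase, was at 4.78 FPKM labelled HuR-FKO and 11.8 FPKM labelled control, 2.47-fold higher in the control-labelled library.

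**Figure D5:**
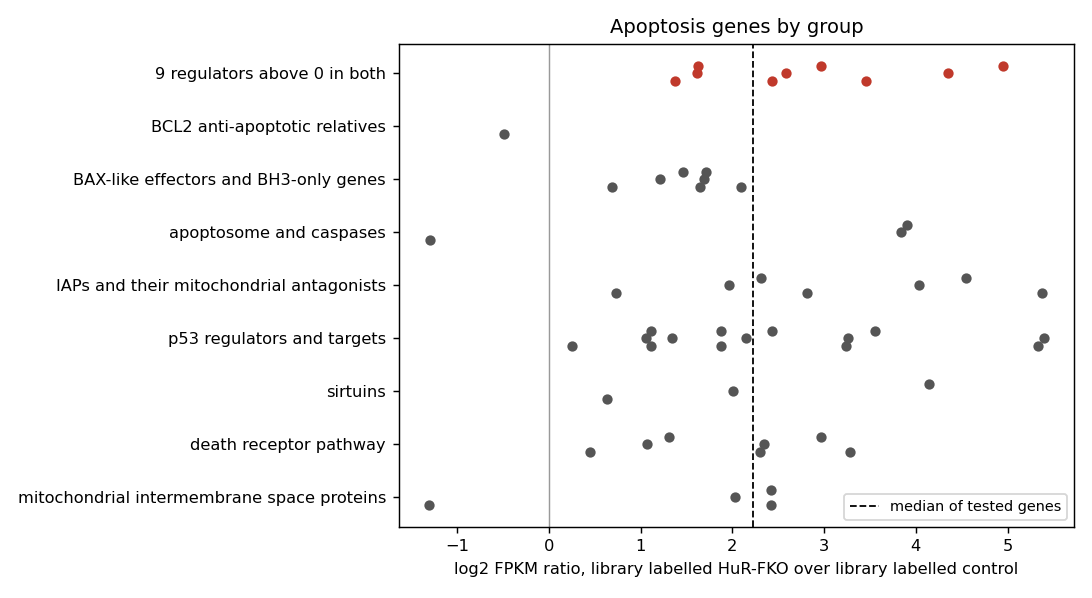
Log2 FPKM ratio, HuR-FKO-labelled over control-labelled library, for the 9 regulators above 0 in both libraries (red) and 46 list genes above 0 in both libraries with 1 FPKM or more in the higher (grey), 1 point per gene, the vertical offset having no meaning. On the deposited scale 43 of the 46 lie right of 0 and 20 lie right of the dashed median of tested genes (2.22). Genes between 0 and 2.09 change sign after median centring. List genes at 1 FPKM or more that are not drawn were listed at 0 in the control-labelled library. With them set to the floor of 0.1 FPKM, 24 of 50 lie above the median.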

How the data were processed

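RNA immunoprecipitated with anti-HuR from epididymal white fat was sequenced, with 1 library per genotype taken from the labels. The authors deposited 1 table of FPKM per gene. Their processing notes to GEO name TopHat2 2.0.11, Cufflinks 2.1.1 and mm10. The labels name the NEBNext Ultra kit, which the study's methods call strand-specific for its tissue RNA-seq. For these libraries the gene annotation, the use of strand in counting and duplicate handling are not given in the sources used here, so whether reads of overlapping genes on opposite strands were kept apart is not known. 1 line of the table was emptied for this work. Biotypes, transcripts and 3' UTRs came from GENCODE M21 (mm10), joined by gene identifier (36489 rows matched, 1907 did not). Start positions were raised by 1 to count from 1. Before log2 ratios of HuR-FKO over control were taken, a floor of 0.1 FPKM was applied to every value, with all computing in Python 3.11.15 with pandas 2.3.3. Tested genes were protein-coding at 5 FPKM or more in either library. A gene listed at 0 got no fold and was left out of medians and counts of the 10 regulators. A difference was called at 2-fold. No test was run, and the ratio code was tested on simulated data.

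Depth is not given. The totals at which low FPKM of single-transcript genes become whole fragments scored best at 36760000 for HuR-FKO and 21860000 for control, and less well at 18060000 for HuR-FKO and at 11000000 and 43960000 for control. The smallest totals were used, so the true fragments may be about 2 times as many, or for control about 4 times. A transcript was shortened by a fragment length of 200 bases. Fragments are estimates and no interval was made from them.

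The 10 genes, the lists and the markers were chosen with earlier results of these data known. Named list genes are up to 3 per list, with the largest distance from the median ratio. They had 5 FPKM or more in the higher library and 0.1 FPKM or more in the lower. Genes overlapping a regulator were named too. Besides those at Casp9 and Bax, these were D630008O14Rik, Mir3473f and Gm37053 at Bcl2 and Gm16145 at Sirt1. All of these at Bcl2 and Sirt1 were under 0.1 FPKM or had no value. Bcl2l2, Birc2, Birc6 and Casp2 were named after their values were seen. Some list genes are counted but not reported by name here. Alternatives were floors and pseudocounts, filters, scalings and gene sets, with the length-weighted Casp9 and Ctrc sum added later.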

Additional observations from a re-analysis of the deposited data

How the results depend on the processing

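No paired analysis was possible because each genotype has 1 library, and for the same reason no replicate could be left out. A value was taken as moved when it changed by more than 1.5 times. Of 123 values of single regulators over the alternatives, 81 stayed within that, 35 moved and 7 changed direction. Filters, gene sets and the Casp9 and Ctrc sum cannot change the ratio of any of the 9 regulators. Their values thus count among the 81 by construction. Only the floors and pseudocounts could move single ratios by unequal amounts. Each scaling shifts all log2 ratios by a constant, namely 2.09 down for median centring, 1.61 down for upper-quartile scaling, 1.81 down for summed FPKM of tested genes and 1.36 up for TPM. Median centring gave log2 ratios of -0.47 for Bax, -0.72 for Cycs and -0.48 for Sirt1, summed FPKM gave -0.18, -0.43 and -0.19 for the same genes, and upper-quartile scaling gave -0.24 for Cycs. These turned directions follow from the shift alone, which is how the scalings are built. The median log2 ratio of the regulators was 0.49 after median centring, 0.98 after upper-quartile scaling, 0.78 with summed FPKM and 3.95 on TPM. Counts at least 2-fold higher in the HuR-FKO-labelled library were 3 after median centring, 4 after upper-quartile scaling and 4 with summed FPKM, against 9 as deposited. Shares of tested genes at the same scalings are not given here. At least 2-fold above the median ratio, a position that scaling leaves unchanged, were 3 regulators and 25% of tested genes. Elavl1 was at -1.44 after median centring, -0.96 after upper-quartile scaling, -1.15 with summed FPKM and 2.01 on TPM. The number of regulators above the median of tested genes was 5 to 9 over 13 alternatives, with 5 at a floor of 1 FPKM, 5 of 6 without overlapping genes and 9 with no filter. At 1 FPKM in place of 5, 42 list genes were at least 2-fold higher in the HuR-FKO-labelled library, because 50 genes entered in place of 32. The same call was made for 80.3% of protein-coding genes at that limit. The control values of Bcl2 and Trp53 limit their folds most.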
